A study of Drosophila melanogaster with 3 samples.

Results

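The X chromosome of Drosophila melanogaster carried 651 promoter peaks of the zinc-finger protein M1BP (Motif 1 binding protein, gene CG9797). They were taken from the deposited list of reproducible peaks (the thresholded list), which holds 4598 peaks, 784 of them on X. A peak was kept when its summit lay within 250 bp of any start site of a protein-coding gene in the Ensembl annotation. By the same rule 3890 peaks in all lay at promoters, so X held 16.7% of them, and the other 3239 lay on the other arms. The 651 peaks marked 727 distinct protein-coding genes, with 474 peaks at 1 gene, 171 at 2 genes and 6 at 3 or more.

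The peaks came from chromatin immunoprecipitation followed by sequencing (ChIP-seq) of whole Drosophila embryos, males and females pooled, collected from 0 to 24 h of age. The animals were of the transgenic strain CG9797-GFP, in which green fluorescent protein is joined to the C-terminus of M1BP. There were 3 biological replicates in 1 group, with no second genotype, treatment or time. The labels conflict: a line of free text names the libraries as input, but the assay type, the antibody (CG9797) and a control named apart from them belong to immunoprecipitates. They were read here as immunoprecipitates. Embryos of this age hold many tissues, so every value is an average over cell types. Male flies carry a single X, so a mixed-sex sample holds fewer copies of X than of each autosome. How the signal was scaled against the control is not given in the sources used here, and binding per copy and copy number cannot be told apart in the levels compared below.

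M1BP binds Motif 1, a DNA element of fly core promoters that is found mostly at genes active in many tissues and often stands without a TATA box. Such promoters are known for RNA polymerase II that pauses soon after the start of transcription. The X chromosome is of interest because male flies raise its transcription through the dosage compensation complex, and because its copy number sets the sex of the fly through the switch gene Sex lethal (Sxl).

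Of the 15 strongest promoter regions on X, 9 held a whole match to Motif 1, with at most 1 mismatch, inside the 100 bp on either side of the summit. The best match of each is printed because these are the letters the protein is named for, at the X promoters where its signal was highest. Each line gives the genes at the peak, the dm6 position and strand, and then the sequence 5′ to 3′ with the Motif 1 match in capitals.
Tpst and CG46311, chrX:13563697-13563725, minus strand: acgctggaaCGGTCACACTGgaaaagaaa
mys and fs(1)h, chrX:8061577-8061605, minus strand: aaatagctcTGGTCACACCGagcctagga
sta and inc, chrX:1483407-1483435, plus strand: gacgcagagCGGTCACACTGagaatcagt
Sxl, chrX:7098134-7098162, plus strand: gcactcggcTGGTCACACTGttcattttc
Top3beta and wuho, chrX:6288005-6288033, plus strand: gcagcaacaGGGTCACACTAcattctaac
CG3918 and CG42340, chrX:6524331-6524359, minus strand: aacaagagcTGGTCACACTGcacgccagc
Tango5, chrX:10764424-10764452, minus strand: aaacacagcTGGTCACACCAtcaagtgct
N, chrX:3134840-3134868, plus strand: gcaccgacgCGGTCACACTGccgatttga
cib, chrX:4106010-4106038, minus strand: gcggttgcaCGGTCACACTGggcctgggt

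Of these sites 6 were exact. With positions counted from 1 at the 5′ end of the consensus, the sites at mys and Tango5 carried T10C and the site at Top3beta carried Y1G. The match at N, the Notch receptor gene, read in the direction of the gene and was centred 16 bp upstream of its start site. The match at Sxl lay on the strand opposite to the gene, centred 95 bp upstream of the start site.

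At 4 other X promoters the DNA replication-related element (DRE, TATCGATA, a palindrome) stood inside the window while Motif 1 did not. They are shown because this element differed most in frequency between X and the other arms among those that were more frequent on X, and these 4 are the strongest such members. The DRE is in capitals.
stx, chrX:10745113-10745140, minus strand: caatgccagcTATCGATAgtaacgatag
CCT2, chrX:9089481-9089508, plus strand: agccgcgcgtTATCGATAacagccatcg
Pat1, chrX:6590825-6590852, plus strand: cagcagtgtcTATCGATAggaccagctg
snf and Cdk7, chrX:5309223-5309250, plus strand: tgcgataacaTATCGATAgaccgcccca

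The deposited signal value ranks peaks within a list, and its scale is not given. For each replicate the strongest entries of its own list were used, as many as the reproducible list holds. Replicate 2 gave the lowest share of members found again, on X and on each large autosomal arm, and the lowest correlations with the others. The X members were found within 100 bp among these strongest entries in 85.4% of cases in replicate 1, in 71.0% in replicate 2 and in 74.7% in replicate 3. On the other arms these shares were 87.1%, 65.0% and 77.3%. Spearman's rho of the signal across X members was 0.871 between replicates 1 and 3 (555 peaks), 0.731 between 1 and 2 (501 peaks) and 0.681 between 2 and 3 (447 peaks). These correlations describe peaks that share libraries and are not tests. GC content of the 100 bp on either side of the summit moved with the loss in replicate 2. Among X members below the median GC of all promoter peaks (39.3%) replicate 2 held 44.4%, and among those at or above it 88.7%. Replicate 1 held 90.0% of the low-GC and 82.3% of the high-GC members, and for replicate 3 these were 78.9% and 71.8%. The part of GC content in the loss was not tested. Results that rest on the replicates are therefore given for each of them.

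The strongest X member was at the starts of Atg8a, a ubiquitin-like protein of autophagy, and BTBD9, a BTB-domain protein. Its interval ran from 10768053 to 10768705, its summit was 56 bp upstream of the nearest start site, and its signal was 3835, the 5th highest of all arms. In replicates 1, 2 and 3 its signal was 1761, 1486 and 580.2, which ranked 13, 4 and 28. Close behind were the region of CG16903 and Unc-76, an adaptor in axonal transport, with 3726, and the region of CG46311 and Tpst, a tyrosylprotein sulfotransferase, with 3357. The divergent pair mys (a beta integrin subunit) and fs(1)h (a bromodomain protein of the BET family) had 3301 and ranked 27, 11 and 24. All 4 regions were among the strongest 50 entries of every replicate.

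Sxl, which encodes the RNA-binding protein that directs female development and turns dosage compensation off in females, was the 7th strongest region on X. Its interval was 7097922 to 7098395 and its signal was 2919. In replicates 1, 2 and 3 the signal was 1360, 1012 and 511.6, at ranks 49, 31 and 60, so it stood high in all 3. The summit, at 7098127, lay 74 bp upstream of the most upstream start site, at 7098053. The other annotated Sxl start sites lay 285, 987 and 5170 bp further downstream, and each was more than 250 bp from any summit of the reproducible list, at 359, 1061 and 5244 bp from the nearest. The peak was thus at 1 of the 4 annotated starts.

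N, which encodes the Notch receptor, had a signal of 2587 with a summit 79 bp upstream of its single annotated start. Its replicate values were 1123, 1026 and 443.2, and its ranks were 121, 28 and 120. Replicate 2 placed N higher in its list than the others did.

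Among the other leading regions were Rala (a small GTPase) with Tlk (a protein kinase) at 2966, and sta (a ribosomal protein of the small subunit) with inc (an adaptor of a ubiquitin ligase) at 2959. RpL22, of the large ribosomal subunit, had 2913, and Top3beta, a topoisomerase, had 2907, in a peak that also marks wuho. The region of CG3918 and CG42340 had 2898 and Tango5, named from a screen on secretion, had 2829. The list of 15 closed with stx at 2599, CG5273 at 2480 and cib, an actin-binding protein, at 2399. The region of Rala and Tlk stood at rank 195 in replicate 1 and at 34 and 40 in replicates 2 and 3. Every one of the 15 lay among the strongest 259 entries of each replicate.

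**Figure D1:**
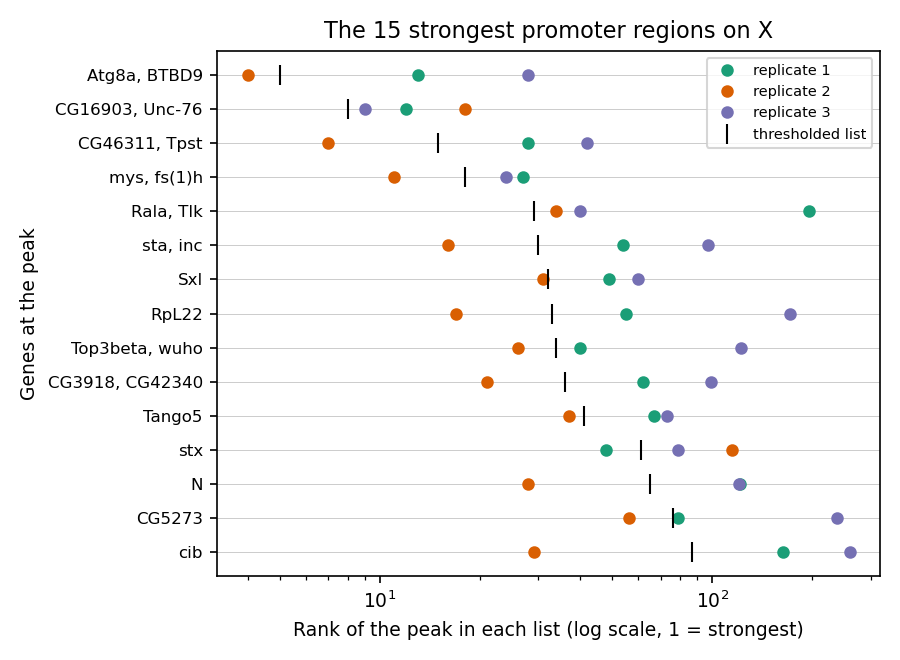
Rank of the 15 strongest X promoter regions in the reproducible list and in each replicate (log axis, 1 is strongest), 1 row per region. Sxl sits at 49, 31 and 60 in replicates 1, 2 and 3, and the widest rank in the plot is 259, at cib in replicate 3.

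Some strong members lay close together. Within 23302 bp stood stx, Tango5 and the region of Atg8a and BTBD9, all among the 15 strongest. The interval of stx also held a summit at the start of ras (raspberry, which encodes IMP dehydrogenase, an enzyme of guanine nucleotide synthesis), with a signal of 2088. CG5273 and RpL22 were 5694 bp apart.

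At the other end, the weakest members were Myb with CG46440 (signal 262.1), AMPKalpha (262.1) and pck (263.3). For the Myb peak, replicate 1 gave rank 5971, replicate 3 gave rank 1555 and replicate 2 listed nothing within 100 bp. AMPKalpha, the catalytic subunit of an energy-sensing kinase, had an entry in replicate 2 alone, at rank 2936. For pck, which encodes a septate junction protein, ranks were 3213 and 1771 in replicates 1 and 2, with no entry in replicate 3. None of these 3 summits was listed in all replicates. Myb and pck also had stronger members nearby, at 644.1 and 975.3, so their weakest summits are not their only peaks. The members just inside the 250 bp limit were PIG-T at 249 bp (signal 329.7), and waw (353.0) and dnc (330.7) at 250 bp. Just outside were a peak 252 bp from CG5004 (326.9) and peaks 257 bp from another dnc start (289.2) and from CG7766 (531.6).

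The comparison of signal asked whether X promoter peaks were as strong as those of the autosomes. The median on X was 551, against 607 on the other arms, a log2 ratio of -0.14. The middle 50% of X members ran from 364.4 to 949.1 and that of the other arms from 384.4 to 1072, so the distributions overlapped over most of their range. Among the 4 large autosomal arms the medians were 576 on 2L, 591 on 2R, 614 on 3L and 639 on 3R, and X lay below all 4. In the replicates' own lists the log2 ratio was -0.16, 0.01 and -0.11, a mean of -0.09 ± 0.09 (SD, n = 3), and the exact two-sided sign-flip permutation test gave p = 0.5. The lower level of X was thus absent in replicate 2, and its mean over replicates was about the size of the SD. With 3 replicates the smallest p this test allows is 0.25, so no comparison here could reach 0.05. Across the 7 comparisons between X and the other arms, Benjamini-Hochberg adjusted p-values ran from 0.4375 to 1, with 0.7 for the signal.

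**Figure D2:**
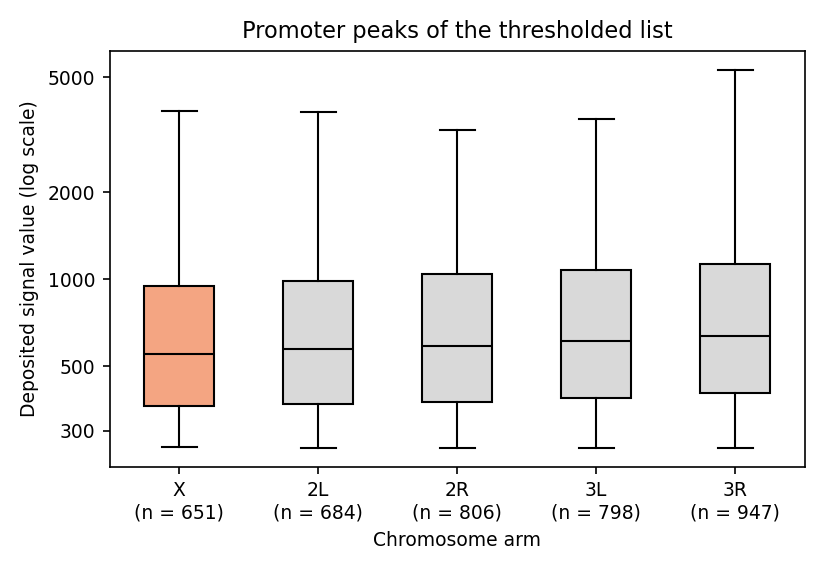
Deposited signal value of promoter peaks in the reproducible list on X and the 4 large autosomal arms (log axis). Boxes span the middle 50% with the median as a line, and whiskers run to the lowest and highest value. The median on X, 551, lies below those of the 4 large autosomal arms, 576 to 639, and the distributions overlap.

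Peaks away from promoters gave no such gap in the reproducible list: their median was 362.9 on X (133 peaks) and 359.9 on the other arms (575 peaks). In the replicates' own lists this median was higher on X in all 3. It was 225.6 against 208.2 in replicate 1 and 81.80 against 73.11 in replicate 3. This difference was not tested. The gap of promoter peaks was also read within classes of GC content. Below the median GC the X median was 488.4 (261 peaks) and that of the other arms 619.1 (1648 peaks), a log2 ratio of -0.34, and the large autosomal arms ran from 600.1 to 636.5. At or above the median GC the values were 595.7 (390 peaks) and 597.8 (1591 peaks), within the 551.1 to 651.5 of the large arms. The replicates were cut at the same 39.3%, the median of the reproducible list. Below it fell 50.2%, 14.6% and 54.5% of X promoter peaks in replicates 1, 2 and 3, so replicate 2 had only 91 there. In the replicates the ratio below this cut was -0.25, -0.27 and -0.17 (mean -0.23 ± 0.05, SD, n = 3), and at or above it 0.03, 0.09 and 0.08 (mean 0.07 ± 0.03). The exact sign-flip permutation test gave p = 0.25 for each, the smallest it can give, and all 3 replicates showed the same direction in each class. The split by GC content separated X from the other arms also in numbers, since 40.1% of X members and 50.9% of the other promoter peaks fell below the median.

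The place of X in the list was uneven. It held 18 of the 99 promoter peaks in the strongest 100 of the list (18.2%), 134 of the 979 in the strongest 1000 (13.7%) and 131 of the 693 in the weakest 1000 (18.9%). The share of X was thus lower in the strongest 1000 than in the weakest, but not in the strongest 100.

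The next comparison was of genes. On X, 727 of 2196 protein-coding genes had a summit within 250 bp of a start, or 33.1% (95% Wilson interval 31.2 to 35.1), and these are called bound here. On the other arms it was 3615 of 11749, or 30.8% (29.9 to 31.6), and over all arms 31.1%. Intervals cover counting error only and treat genes as independent, which neighbours that share a peak are not. The difference was 2.34 percentage points. In replicates 1, 2 and 3 the shares on X were 31.7%, 30.8% and 30.4%, and on the other arms 31.2%, 27.9% and 29.1%. The difference was 0.508, 2.95 and 1.27 points, a mean of 1.58 ± 1.25 (SD, n = 3), above 0 in all 3 (exact two-sided sign-flip permutation p = 0.25, adjusted 0.4375). Among the large autosomal arms the share ran from 28.3% on 2L to 32.2% on 3R. X lay above all 4, by 0.893 points over 3R and by 4.77 over 2L. The direction turned with peaks above the median signal alone (-1.12 points) and without replicate 2 (-0.109 points).

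**Figure D3:**
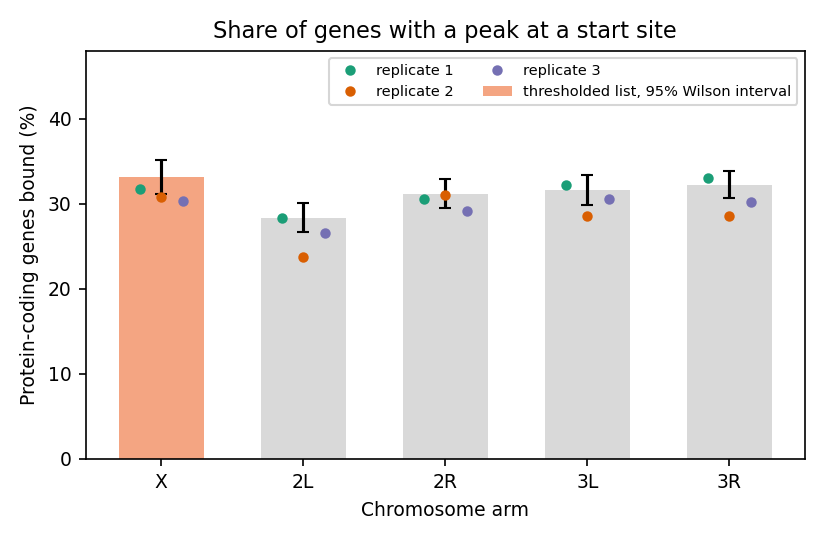
Share of protein-coding genes with a summit within 250 bp of a start site, by chromosome arm, for the reproducible list with its 95% Wilson interval and for each replicate. X stands at 33.1% and the large autosomal arms at 28.3% to 32.2%, and replicate 2 lies lowest on 2L, 3L and 3R.

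Along X the share of bound genes was lower in each successive part. In 5 equal parts of the chromosome, counted from the tip with coordinate 1, it was 36.6% (159 of 434 genes), 36.5% (171 of 469), 32.1% (142 of 443), 30.8% (159 of 517) and 28.8% (96 of 333). The intervals of the outer parts, 32.2 to 41.3 and 24.2 to 33.9, overlapped. The median signal did not follow this order, with 587.1, 546.9, 480.9, 596.9 and 526.6.

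The distance between genes was larger on X than on the other arms, for bound and unbound genes alike. X had 93.3 protein-coding genes per Mb and the other arms 106.5. A bound gene's most upstream start lay a median of 407 bp from the nearest start of another gene on X and 354 bp on the other arms, a log2 ratio of 0.20. For unbound genes the distances were 2443 and 1830 bp (log2 ratio 0.42), and for all genes 1715 and 1373 bp (0.32). The wider spacing was thus shared by genes without a peak. In the replicates the ratio for bound genes was 0.18, 0.34 and 0.19, a mean of 0.24 ± 0.09 (SD, n = 3; exact sign-flip permutation p = 0.25, adjusted 0.4375). The 567 bound regions of X, with neighbouring summits counted once, were a median of 12077 bp apart, against 10057 bp on the other arms.

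Close divergent genes were frequent at bound promoters on X and elsewhere. A start of another gene on the opposite strand lay within 1000 bp upstream at 343 of the 651 members, or 52.7% (48.9 to 56.5), and at 54.6% (52.9 to 56.3) of the other promoter peaks. The difference in replicates 1, 2 and 3 was -1.13, -3.67 and -2.70 points, a mean of -2.50 ± 1.28 (SD, n = 3; exact sign-flip permutation p = 0.25). Counted at the most upstream start of every gene, bound or not, the share with such a neighbour was 34.5% on X and 35.4% on the other arms. Of X genes with such a neighbour 446 of 758 were bound (58.8%), and of those without it 281 of 1438 (19.5%). On the other arms these shares were 55.5% and 17.2%. A summit within 250 bp of both starts of a close pair marks both genes as bound. The part of this in the difference between the shares was not tested. Divergent members of X had a median signal of 551.1 and the rest of 552.5.

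Summits on X lay a median of 54 bp from the nearest start, against 47 bp on the other arms. The medians were 61 and 54 bp in replicate 1, 47 and 44 bp in replicate 2, and 70 and 68 bp in replicate 3. Of X summits 77.7% lay upstream of the nearest start, against 73.3% elsewhere and 77.2% on 3R. The upstream share in replicates 1, 2 and 3 was 81.0%, 59.5% and 77.5% on X and 81.1%, 49.8% and 75.96% on the other arms, so replicate 1 showed no gap. Of all X peaks 83.0% (80.3 to 85.5) were at promoters, and of the peaks on the other arms 84.9% (83.8 to 86.0). That difference was -1.97, 2.53 and 0.336 points in replicates 1, 2 and 3 and so changed sign between them (mean 0.302 ± 2.25, exact sign-flip permutation p = 0.75). Members found among the strongest entries of all 3 replicates were 322 of 651, or 49.5% (45.6 to 53.3), against 47.5% (45.8 to 49.2) on the other arms. The single replicates differed by -1.66, 5.98 and -2.62 points (mean 0.566 ± 4.71, exact sign-flip permutation p = 1).

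Motif 1, allowing 1 mismatch on either strand within 100 bp of the summit, was present at 215 of the 651 members, or 33.0% (29.5 to 36.7), and at 31.5% (29.9 to 33.1) of the other promoter peaks. An exact match was present at 84 members (12.9%) and at 12.2% of the others. At windows of the same length around the most upstream start of each gene, a match with up to 1 mismatch stood at 31.9% of bound and 1.91% of unbound X genes. Of the 260 X starts with such a match, 89.2% belonged to bound genes, against 90.7% on the other arms. The difference in frequency between X and the other arms was 4.18, 3.45 and 4.16 points in replicates 1, 2 and 3, a mean of 3.93 ± 0.412 (SD, n = 3; exact sign-flip permutation p = 0.25, adjusted 0.4375), above 0 in all 3. It was smaller in the reproducible list (1.50 points), where X lay within the range of the large arms (28.9% to 33.2%). The direction turned below the median GC content (-3.40 points) and without replicate 3 (-0.103 points). Motif 1 was also more frequent at all X starts, bound or not (11.8% against 10.4%).

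X members with Motif 1 had the higher signal, a median of 890.8 against 456.6 without it, and on the other arms the medians were 1054 and 481.7. With X members cut by signal into 4 classes of equal size, from the weakest to the strongest, the share with Motif 1 was 10.4%, 14.7%, 49.4% and 57.7%. The share found in all 3 replicates was 3.68%, 35.0%, 71.0% and 88.3% over the same classes. Both shares were higher in each successive class. For recovery this rise is built in, because the reproducible list derives from the same replicates and only their strongest entries counted. Even so, 22 of the 50 strongest regions and 45 of the 100 strongest had no match in the window. Among the leading 15, RpL22, stx and CG5273 had none within 500 bp, whereas the nearest match lay 136 bp from the summit at Atg8a, 159 bp at Rala and 99 bp, only partly inside the window, at Unc-76.

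Where the match had 1 mismatch, the most frequent change on X was T4C, at 26 of 131 such members (19.8%), followed by T10C at 16 (12.2%) and R11T at 13. On the other arms T4C was found at 75 of 627 (12.0%). The site was centred a median of 31 bp from the summit on X and 29 bp elsewhere, and it read in the direction of the nearest gene at 152 of 215 X members (70.7%) and at 76.7% of the others.

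The DRE, bound by the factor Dref, was at 105 members, or 16.1% (13.5 to 19.2), and at 378 of the other promoter peaks, or 11.7% (10.6 to 12.8). The large autosomal arms ran from 10.3% to 12.8%. In replicates 1, 2 and 3 the difference was 3.25, 6.71 and 5.39 points, a mean of 5.11 ± 1.75 (SD, n = 3), above 0 in all 3 (exact sign-flip permutation p = 0.25, adjusted to 0.333 over 8 motif comparisons). The element was also more frequent at all X starts, bound or not (11.9% against 7.07%). Members with it had a median signal of 546.9 and members without it 553.4.

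The TATA box letters TATAAA stood in fewer X windows, 23.0% (19.97 to 26.4) against 28.3% (26.7 to 29.8), with 26.8% to 29.8% on the large arms. The replicate differences were -5.28, -3.12 and -1.24 points, a mean of -3.22 ± 2.02 (SD, n = 3; exact sign-flip permutation p = 0.25, adjusted 0.333). Here too all starts differed likewise, with 23.5% on X and 30.2% elsewhere. GC content moved with both, at a median of 40.8% in X members and 38.8% in the other promoter peaks, and its part in them was not tested. Motif 6 (4.46% on X, 5.03% elsewhere), Motif 7 (12.1%, 13.1%) and the E-box CAGCTG (14.3%, 16.8%) were each less frequent on X in the reproducible list. The GAGA element GAGAGAGA, written without mismatches, was in 4 X members (0.614%) and in 0.679% of the others. All motifs were sought on both strands, a window may hold several, and a match is only a description of the letters.

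**Figure D4:**
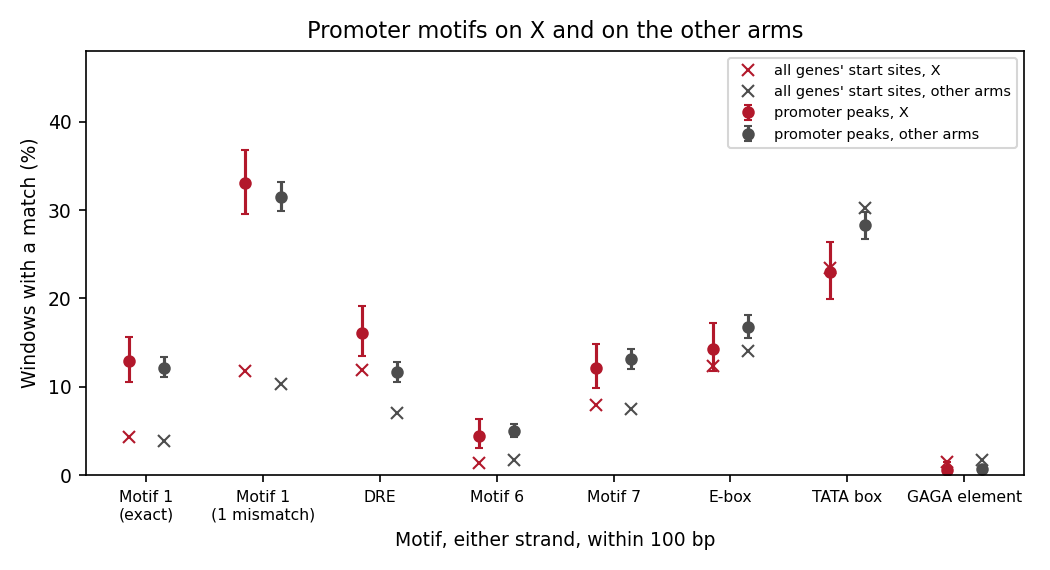
Share of promoter peaks with each motif within 100 bp of the summit, on X and on the other arms, with 95% Wilson intervals, and the share of all protein-coding start sites as crosses. DRE stands at 16.1% on X and 11.7% elsewhere, and the TATA box at 23.0% and 28.3%.

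The genes behind the X peaks were read through 26 lists of known function, as counts beside the 33.1% of all X genes bound. The lists were drawn up by symbol or name pattern and are not complete, so each count is of the listed genes. Of the listed cytosolic ribosomal proteins on X 13 of 14 were bound, and on the other arms 58 of 72 (80.6%). The strongest was sta (2959) and the weakest RpL35 (496.0), with RpL22, RpS10b (1303) and RpL17 (1186) in between. RpS6 had no peak in the reproducible list, but ranked 3931 in replicate 2, among its strongest entries. The name pattern missed RpL37-1, also of the cytosolic ribosome, which was bound with a signal of 1892. In replicates 1, 2 and 3 the count was 13, 13 and 11. Of the mitochondrial ribosomal proteins 5 of 12 were bound, from mRpL16 (1230) to mRpS14 (375.1), against 37 of 63 elsewhere. Listed respiratory chain and ATP synthase genes were bound at 9 of 12, from ND-20 (1133) to ND-75 (340.6), against 37 of 76 (48.7%). The complex I genes ND-B16.6 (530.0) and NdufA3 (357.8) were bound too but were not caught by the pattern.

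In translation, 5 of 7 translation factors were bound, led by eIF2Bepsilon (2089) with eIF3g1 (304.0) the weakest. The 3 aminoacyl-tRNA synthetases of X, which load amino acids onto tRNA, were all bound: LysRS (1237), HisRS (1015) and ArgRS (316.6). Of the spliceosome 2 of 6 were bound, snf (1304, a protein of the U1 and U2 particles) and l(1)10Bb (374.9), against 26 of 31 (83.9%) on the other arms. The unbound were Prp16, Tango4, U2af50 and crn, of which U2af50 ranked 2821 in replicate 1, among its strongest entries. With 6 genes the interval on X ran from 9.68% to 70.0%. In general transcription the bound were Polr2A (1339), the largest subunit of RNA polymerase II, Cdk7 (1304) and Spt6 (285.8). Cdk7 shares its peak with snf. Taf8 and Taf9 were unbound, though Taf9 ranked 3210 in replicate 2, among its strongest entries.

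Of the listed replication genes 3 of 4 were bound, from Mcm6 (672.8), a subunit of the replicative helicase, to Mcm3 (328.6). Cdc45, another helicase component, was bound with a signal of 1317 but was listed under a symbol that the annotation lacks. Of the proteasome 2 of 6 were bound, Rpt4 (1671) and Prosalpha4 (617.9). Among the unbound, Rpt3 ranked 3565 in replicate 1 and Rpt6 ranked 3153 in replicate 2, each among the strongest entries of that replicate only. The paralogs Prosbeta2R1 and Rpn13R had no entry in any replicate. All 5 nuclear pore genes were bound, from Nup205 (778.2) to Nup153 (341.6). Of the vesicle coats and tethers 7 of 8 were, from betaCOP (1136) to Sec61gamma (385.4). Sec16 was unbound, though it ranked 4284 in replicate 1, among its strongest entries. Sec61gamma, counted in this list, is a subunit of a protein translocation channel and not a coat or tether. Rab GTPases, the switches of membrane traffic, were bound at 6 of 13, from Rab21 (869.2) to Rab40 (272.9). The unbound were Rab18 and the genes Rab9D, Rab9Db, Rab9E, Rab9Fa, Rab9Fb and RabX2. All of these except Rab18 had no entry in any replicate. Autophagy gave Atg8a and Atg5 (349.0) of 3, the vacuolar proton pump VhaAC39-1 (389.4) of 2, Mediator MED22 (691.0) of 2, and cyclins and mitotic regulators fzr (1513) of 2. Over these first 15 lists together 67 of 102 X genes were bound, 65.7% (56.1 to 74.2), and on the other arms 407 of 620, likewise 65.7% (61.8 to 69.3). The X count includes the Rab and proteasome genes without any entry. In replicates 1, 2 and 3 the share was 65.7%, 62.7% and 58.8% on X and 65.7%, 58.4% and 60.0% elsewhere. Of genes in none of these lists 31.5% were bound on X and 28.8% elsewhere.

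**Figure D5:**
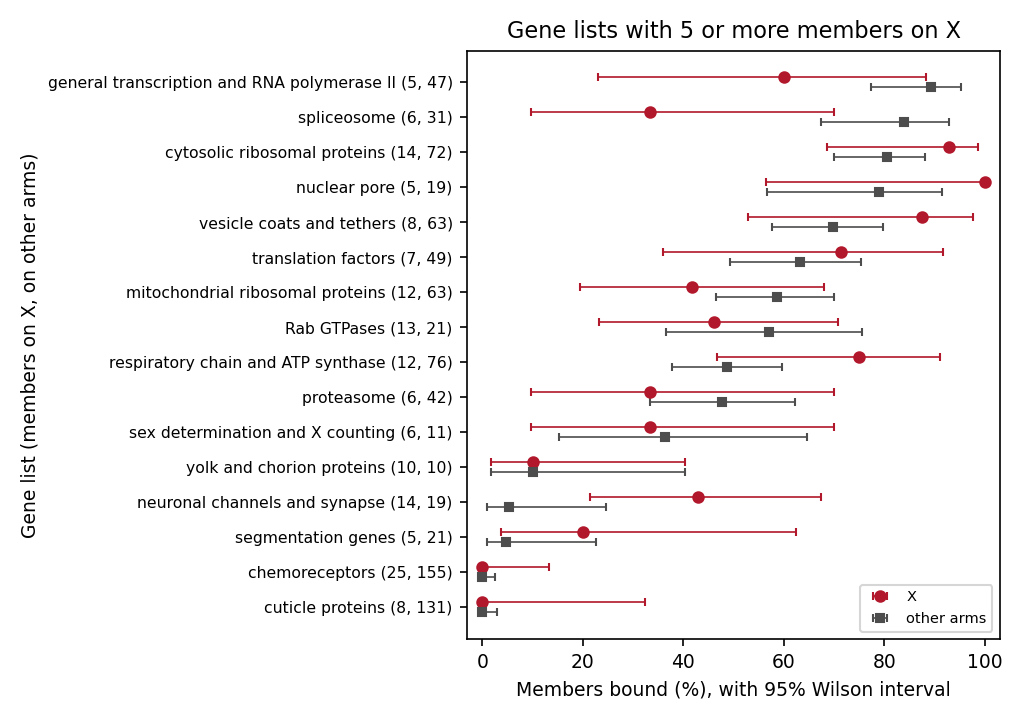
Share of each list's genes bound on X and on the other arms, with 95% Wilson intervals, for lists with 5 or more X genes. Cytosolic ribosomal proteins stand at 13 of 14 on X, and cuticle proteins and chemoreceptors at 0 on X.

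Among lists of genes used in few cells, peaks were absent from some and not from others. None of the 8 cuticle protein genes and none of the 25 chemoreceptor genes on X were bound, as on the other arms (0 of 131 and 0 of 155). The upper ends of the X intervals were 32.4% and 13.3%. Of 10 genes caught as yolk and chorion proteins the only bound was Cp110 (754.8), a centriole protein that the name pattern took in. The yolk protein genes Yp1, Yp2 and Yp3 were unbound. Of the segmentation list fs(1)N (524.3), a gene of terminal patterning, was bound, and the transcription factor genes btd, gt, oc and run were not. The peak of fs(1)N was shared with DAAM, whose start was nearer to the summit. The list of neuronal channels and synapse genes gave 6 of 14 on X and 1 of 19 on the other arms, with 3, 6 and 3 of the X genes in replicates 1, 2 and 3. One of the 6, ras, is an enzyme of nucleotide synthesis and was listed in error. The others were dlg1 (748.9, a scaffold of septate junctions and synapses), nonC (587.1), elav (543.9, a neuronal RNA-binding protein), norpA (301.4, phospholipase C of phototransduction) and eag (291.5, a potassium channel). The ion channel genes Sh, para and cac were unbound. Of the bound, dlg1 and nonC are not confined to neurons and were among the strongest entries of all 3 replicates. With summits counted within 250 bp of a start, each of elav, norpA and eag was among them in 1 replicate only. The elav summit of the reproducible list lay 221 bp from the start, near this limit. Within 100 bp of that summit, entries ranked 1901, 3647 and 2096 in replicates 1, 2 and 3, all among the strongest.

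Genes that read the X dose and set sex were bound in 2 of 6, Sxl and snf, which also acts in Sxl splicing. The X-linked signal genes sisA, sc, upd1 and run, whose early dose activates Sxl, had no peak, and sisA, sc and upd1 had no entry at their starts in any of the 3 replicates. The run gene had an entry in replicate 2 alone, at rank 18540. Of the dosage compensation genes 7 of 8 on the other arms were bound, while mof, which encodes the histone acetyltransferase of the complex and is the 1 member on X, was not. Its nearest entries ranked 5996 in replicate 1 and 7546 in replicate 3, with none in replicate 2, so it stood below the strongest entries in all 3. Of the insulator and promoter factors Trf2 (1308), a relative of the TATA-binding protein, was bound and dwg was not. In the Notch pathway N was bound and dx was not. An entry at dx was listed in replicate 2 alone, at rank 2109, among the strongest there.

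The classical visible markers of X, known from their mutant phenotypes, were bound in 9 of 33 (27.3%, interval 15.1 to 44.2), near the 33.1% of all X genes. The bound were N, ras, amx (1003), car (990.5), rb (799.0), fu (656.5), r (589.9), ec (436.7) and g (363.0). Of these car, rb and g act in vesicle traffic to lysosomes and pigment granules, and r encodes an enzyme of pyrimidine synthesis. The unbound were B-H1, B-H2, ac, bi, ct, cv, dor, dy, f, fw, if, lz, m, mal, pn, rst, sc, sd, sn, sog, t, v, w and y. Some of these were among the strongest entries of 1 replicate. They were cv (rank 4509), dor (3353), fw (4306) and sn (3950) in replicate 2, and sd (4579) in replicate 3. Counted in replicates 1, 2 and 3, 8, 12 and 9 of the 33 were bound. The eye pigment gene w had an entry in replicate 2 alone, at rank 7896, and y had none.

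Of X genes known only by a CG number 217 of 1025 were bound (21.2%), and of those with another name 510 of 1171 (43.6%). On the other arms these shares were 19.8% and 39.1%.

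The members whose rank varied most among the 100 strongest were fzr (1513), Pis with Hap40 (1597), CG1703 with CG2247 (1291), ewg with CG3777 (1708) and GCS2alpha (1230). A missing entry was counted as ranked last, so the lack of an entry in some replicate is built into this choice. All 5 had no entry within 100 bp in replicate 2. PpV (1431), also among the 100 strongest, had none within 100 bp in replicate 1, and schlank (1449) none in replicate 3. Some of these had a weaker member nearby that was listed where the entry was missing. It ranked 526 in replicate 2 at Hap40, 540 in replicate 1 at PpV and 448 in replicate 3 at schlank. In replicates 1 and 3 fzr, an activator of the anaphase-promoting complex, ranked 214 and 140. The region of Pis ranked 389 and 248, and ewg, a transcription factor, ranked 457 and 361. CG1703 ranked 499 and 264, and GCS2alpha 772 and 450.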

How the data were processed

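ChIP-seq was done on 3 biological replicates, numbered as in the labels. The authors deposited, per the file notes, a relaxed peak list for each replicate, a pooled list and an IDR-thresholded list on dm6; all were called against 1 shared control. The deposited signal value is the authors' peak score, of unstated scale. The deposited −log10 q-value reached its ceiling at 629 of the 651 members (96.6%) and was not used to rank. The deposited summit offset gave each summit. For the aligner, peak caller and IDR threshold, no name or value is given in the sources used here. The files hold no read counts, so sequencing depth is unknown, and each relaxed list contains background.

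Start sites came from Ensembl release 115 (BDGP6.54), and sequences from the NCBI Release 6 genome, which shares dm6 coordinates. The 6 main arms were used, with 5 of them compared with X. Python 3.11.15, numpy 2.4.6, pandas 2.3.3 and scipy 1.17.1 were used, and the steps were checked on simulated data. Peaks are not replicates, so comparisons were tested over the 3 replicates by an exact two-sided sign-flip permutation test. Shares have 95% Wilson intervals. The labels call the replicates biological and do not say whether they came from separate embryo collections, so p-values measure only the spread between these samples.

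Named genes were those at the 15 strongest regions, the strongest and weakest bound X gene of each list, all X genes of the sex determination, dosage compensation and visible marker lists, the 3 weakest members and the 5 with the widest ranks. The remaining named genes (sequence examples, unbound list members, others) were chosen after values were seen. The members and lists were chosen with earlier results of these data known. Alternatives changed the promoter distance, neighbouring summits, start sites, strength, GC class, motif settings and replicates. Of the symbols listed, 39 of 41 replication genes, 37 of 40 spliceosome genes, 9 of 11 dosage compensation genes and 33 of 42 visible markers matched the annotation. No printed value rests on the pooled relaxed list, and the control was not used here.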

Additional observations from a re-analysis of the deposited data

How the results depend on the processing

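No paired analysis was possible because there is no second group of samples to pair; X and the other arms were compared within each replicate. The signal ratio, divergent share and spacing kept their direction under all alternatives run (10, 9 and 8). Single replicates were not among these alternatives, and the signal ratio turned in some of them. It was 0.01 in replicate 2, and at or above the median GC it was 0.03, 0.09 and 0.08 in replicates 1, 2 and 3. The share of bound genes kept it in 6 of 8, the share of peaks at promoters in 7 of 8, the Motif 1 share in 10 of 12 and the recovery in 8 of 11. With peaks above the median signal the bound share difference was -1.12 points, the Motif 1 difference 5.18 and the recovery difference 7.76. With a promoter distance of 100 bp the bound share difference was 0.586, the Motif 1 difference 3.31 and the spacing ratio 0.33. The Motif 1 difference was 0.990 with neighbouring summits counted once, 2.06 with the most upstream starts, 0.739 for exact matches and 0.256 within 50 bp. Below the median GC content the signal ratio was -0.34, the Motif 1 difference -3.40 and the recovery difference -6.47. At or above it the signal ratio was -0.00495 and the Motif 1 difference 4.31. With divergent starts within 500 bp that difference was -5.26. Leaving out each replicate gave a bound share difference of -0.109 (without replicate 2) to 2.44, a Motif 1 difference of -0.103 (without replicate 3) to 4.18, and a recovery difference of -3.52 (without replicate 2) to 5.10. It gave a promoter share difference of -2.38 to 0.139, a divergent difference of -3.23 to -1.80, a spacing ratio of 0.19 to 0.40 and a signal ratio of -0.23 to -0.0700. The causes were not tested. Sequencing depth is unknown, so peaks that a replicate lacks may be below its detection limit.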
